A study of Mus musculus with 12 samples.

Results

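Chemokines are small secreted proteins that guide leukocytes along concentration gradients, and their receptors are G protein-coupled receptors on the cells that migrate. Inflammatory chemokines are made on demand by injured epithelium, endothelium and macrophages, whereas homeostatic chemokines are made constantly and position lymphocytes and other resident cells. In the obstructed kidney, tubular injury is known to be followed by an influx of monocytes, T cells and neutrophils, and several chemokine receptors are known to mediate it. Here the transcripts of this family were described in kidney cortex with and without obstruction, and with and without Acot12, which encodes a thioesterase of fatty acid metabolism acting on CoA esters. Members were chosen by name alone, as gene symbols of the pattern Ccl, Cxcl, Cx3cl, Xcl, Ccr, Cxcr, Cx3cr or Xcr followed by a number and at most 1 letter. Of 23183 symbols, 57 matched (39 ligands and 18 receptors), and 44 of them (33 ligands and 11 receptors) reached 0.3 FPKM in at least 3 of 12 libraries and are described. FPKM counts fragments per kilobase of a transcript at a fixed number of mapped fragments, so levels can be compared between genes.

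The 12 libraries were bulk mRNA libraries of kidney cortex from male C57BL/6 mice (C57BL/6N in the study's methods) that underwent unilateral ureteral obstruction (UUO) at 6 to 7 weeks of age, collected on day 7. The 4 groups of 3 were the contralateral (CL) kidneys of Acot12+/+ mice, the UUO kidneys of Acot12+/+ mice, the CL kidneys of Acot12-/- mice and the UUO kidneys of Acot12-/- mice. All kidneys, CL kidneys included, came from operated mice, and no unoperated or sham kidney was analysed here. The Acot12-/- mice carried a germline mutation made with a programmable nuclease, so the gene was mutated in all cells of the body. In bulk cortex, fewer cells of a type and less RNA per cell cannot be told apart. Values of the libraries are given below in the order of their replicate numbers.

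Depth, read from the steps between low values, in units of 1e6 fragments, was 12.4 to 16.1 in CL libraries and 18.3 to 23.5 in UUO libraries, so that 1 fragment on an effective kilobase was worth 0.0426 to 0.0803 FPKM and values below about 0.1 rest on few fragments. Acot12 itself was at 73.8, 52.7 and 78.1 FPKM in the CL libraries of Acot12+/+ mice against 9.14, 9.01 and 6.80 in those of Acot12-/- mice, with 9.98, 16.7 and 21.2 against 3.28, 1.80 and 3.86 in the UUO libraries, lower in every Acot12-/- library than in any Acot12+/+ library of the same kidney; values cover the whole gene, and a mutated gene can still be transcribed. The summed FPKM of 6 proximal tubule markers, which for CL kidneys came to 2651 to 3223 (Acot12+/+) and 3647 to 5172 (Acot12-/-), was high as in cortex, and was 651 to 1168 and 520 to 1442 in the UUO groups. Along the second principal component of all genes tested, the library of Acot12-/- CL 2 lay at -52.8 and the other two of its group at 22.5 and 33.4. The library of Acot12-/- UUO 2 had the highest summed FPKM of 6 neutrophil markers, 169, against 46.1 and 60.5 in its group. Calls of members that changed without either or both of these libraries are given with the results.

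Obstruction was accompanied by higher levels of most chemokine transcripts in both genotypes. The summed FPKM of the 33 ligands went from 244 to 279 in the CL libraries of Acot12+/+ mice to 644 to 682 in their UUO libraries; the same sums of Acot12-/- mice were 128 to 162 and 617 to 708. That of the 11 receptors was 13.4 to 17.0 and 56.7 to 66.1 in Acot12+/+, and 4.90 to 14.6 and 62.1 to 73.4 in Acot12-/-. In Acot12+/+ mice, 29 of 44 members rose and 6 fell at an adjusted p under 0.05, against a background of 23.7% of 14963 genes called higher and 21.7% called lower. In Acot12-/- mice, 37 rose and 3 fell, with 27.7% and 24.6% of all genes called higher and lower. The median log2 fold change of the members was 1.38 in Acot12+/+ and 1.95 in Acot12-/-, beside 0.03 and 0.04 over all genes tested. A gene silent in CL kidneys entered the description only through its level in UUO kidneys, and Cxcl13 entered only through its level in CL kidneys. All 29 members that rose in Acot12+/+ were among the 37 that rose in Acot12-/-, and 3 of the 6 that fell in Acot12+/+ were the 3 that fell in Acot12-/-. No receptor was called lower in either genotype: 8 of 11 rose in Acot12+/+ and 10 of 11 in Acot12-/-.

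**Figure D1:**
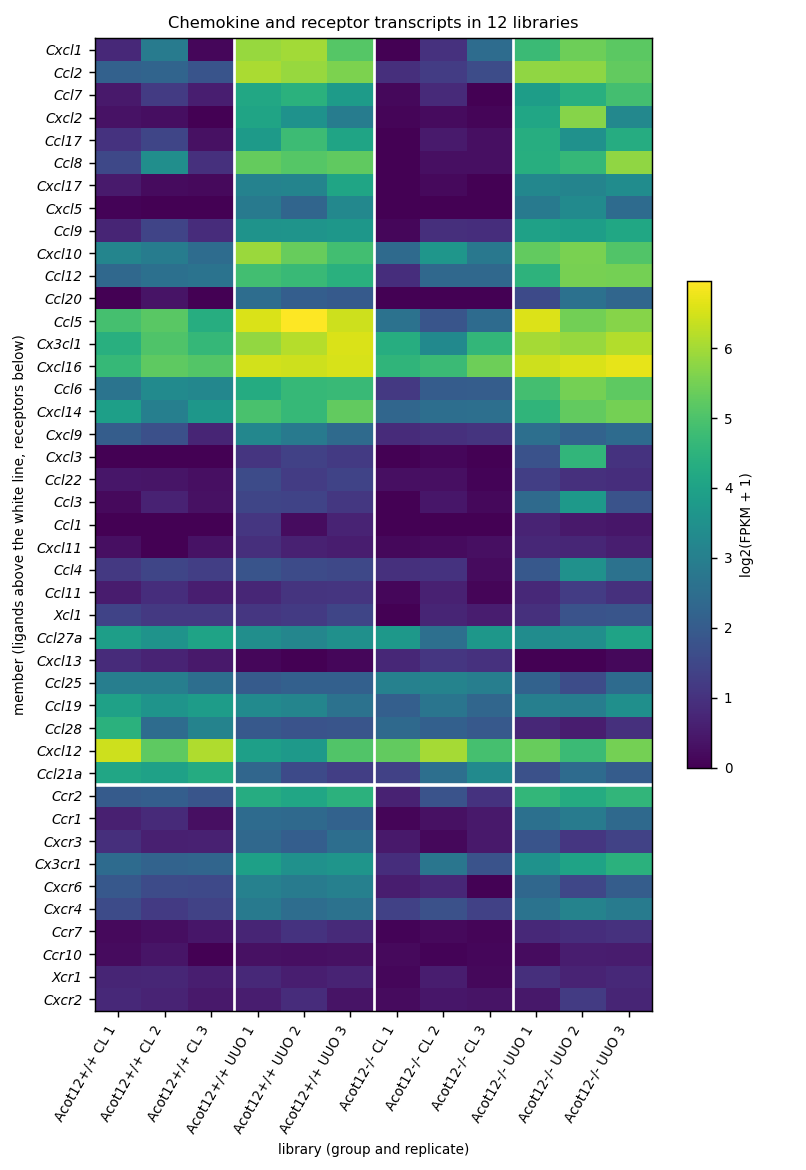
Level of 43 members (rows, ligands above the white line and receptors below) in the 12 libraries (columns, by group and replicate), coloured by log2(FPKM + 1). Most rows are brighter in both UUO groups, while Ccl21a, Cxcl12, Ccl28, Ccl19, Ccl25 and Cxcl13 are brightest in CL libraries of 1 or both genotypes.

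Ligands of Ccr2, the receptor that draws inflammatory monocytes, rose in both genotypes. Ccl2, also called monocyte chemoattractant protein, was at 3.50, 3.71 and 2.53 FPKM in the CL libraries of Acot12+/+ mice and 66.4, 57.5 and 47.1 in their UUO libraries. Ccl2 in Acot12-/- mice was at 0.930, 1.34 and 2.05 in the CL libraries and 54.9, 53.5 and 37.8 in the UUO libraries. The UUO libraries lay far above the CL libraries in both genotypes, with a log2 change of 3.77 (SE 0.21, adjusted p = 7.93e-07) in Acot12+/+ and a log2 change of 4.35 (SE 0.21, adjusted p = 2.04e-07) in Acot12-/-. Ccl7, a second Ccr2 ligand, rose from 0.394, 1.30 and 0.487 FPKM in CL to 16.9, 20.7 and 13.0 in UUO of Acot12+/+ mice (log2 change 3.39, SE 0.30, adjusted p = 1.12e-05). Ccl7 in Acot12-/- mice rose from 0.118, 0.792 and 0 to 13.6, 19.9 and 28.5 (log2 change 4.04, SE 0.30, adjusted p = 1.5e-06). Both changes were many times their SE, although CL levels of Ccl7 were near the limit of detection. Ccl12, a mouse ligand of Ccr2, had a higher level than Ccl7 in CL kidneys. Ccl12 was at 4.13, 4.89 and 5.24 FPKM in the CL libraries and 27.8, 25.0 and 20.2 in the UUO libraries of Acot12+/+ (log2 change 2.13, SE 0.37, adjusted p = 0.000632). Ccl12 in Acot12-/- mice was at 0.875, 4.08 and 4.12 and 21.7, 45.1 and 44.1 (log2 change 3.31, SE 0.37, adjusted p = 2.08e-05), with Acot12-/- CL 1 below the other CL libraries. Ccl8, which attracts monocytes and T cells, rose in Acot12-/- mice from 0, 0.209 and 0.225 to 19.4, 23.8 and 55.1 FPKM (log2 change 4.74, SE 0.52, adjusted p = 1.93e-05). In Acot12+/+ mice it rose from 1.85, 9.76 and 0.943 to 38.5, 33.9 and 37.4 (log2 change 3.26, SE 0.52, adjusted p = 0.000371), and Acot12+/+ CL 2 was well above the other CL libraries.

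The receptor rose with its ligands. Ccr2 was at 3.02, 3.22 and 2.59 FPKM in the CL libraries and 18.7, 16.4 and 21.3 in the UUO libraries of Acot12+/+ mice, with a log2 change of 2.33 (SE 0.24, adjusted p = 2.5e-05). Ccr2 in Acot12-/- mice was at 0.577, 2.43 and 1.04 and 23.1, 18.6 and 22.7, with a log2 change of 3.33 (SE 0.24, adjusted p = 1.16e-06). No UUO library overlapped with a CL library. Ccr2 was the most abundant receptor transcript in all 6 UUO libraries, and held 27.8% to 37.2% of the summed receptor FPKM there. In CL libraries the most abundant was Cx3cr1 in 5 of 6 and Cxcr4 in Acot12-/- CL 1. The 11 macrophage and monocyte markers moved with these genes: their summed FPKM in the CL and UUO libraries was 105 to 128 and 518 to 619 for Acot12+/+, and 46.1 to 80.3 and 557 to 669 for Acot12-/-, with 9 of 11 called higher with UUO in Acot12+/+, 11 of 11 in Acot12-/-, and none at 0. Their part in the result was not tested.

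Ligands of Cxcr2, which recruit neutrophils, went from low levels in CL kidneys to higher levels in UUO kidneys. Cxcl1 was at 0.727, 6.37 and 0.097 FPKM in the CL libraries of Acot12+/+ mice and 57.9, 62.3 and 33.5 in their UUO libraries, with a log2 change of 4.39 (SE 0.67, adjusted p = 0.000285). Cxcl1 in Acot12-/- mice was at 0, 1.00 and 4.49 and 25.9, 41.8 and 35.5, with a log2 change of 3.97 (SE 0.67, adjusted p = 0.000393). The CL libraries of both genotypes were uneven, and Acot12+/+ CL 2 and Acot12-/- CL 3 were the highest of them. Cxcl2 was at 0.263, 0.191 and 0 FPKM in the CL libraries and 15.7, 10.6 and 6.53 in the UUO libraries of Acot12+/+ (log2 change 3.31, SE 0.47, adjusted p = 0.000181). Cxcl2 in Acot12-/- mice was at 0.078, 0.156 and 0.073 and 16.4, 50.8 and 8.52 (log2 change 4.22, SE 0.47, adjusted p = 2.19e-05), and the second UUO library was over 3 times the next. Cxcl5, an epithelial Cxcr2 ligand, was listed at 0.052, 0 and 0 FPKM in Acot12+/+ CL and at 0 in each Acot12-/- CL library, and was at 6.23, 3.79 and 8.44 and 6.26, 9.01 and 4.41 in the UUO groups (adjusted p = 1.01e-05 and 3.17e-06). Cxcl2 and Cxcl5 reached 0.3 FPKM only in UUO libraries, so that they were higher there is largely set by the floor.

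For Cxcl3, another ligand of Cxcr2, the call in Acot12+/+ mice depended on 1 Acot12-/- library. It was listed at 0 in each Acot12+/+ CL library and at 0, 0.084 and 0 in Acot12-/- CL, and was at 1.12, 1.52 and 1.29 FPKM in Acot12+/+ UUO and 2.38, 22.8 and 1.03 in Acot12-/- UUO. Cxcl3 reached 0.3 FPKM only in UUO libraries, so that it was higher there is largely set by the floor. The change passed the test in Acot12-/- (log2 change 2.41, SE 0.63, adjusted p = 0.00696) and not in Acot12+/+ (adjusted p = 0.139), where every UUO library was nevertheless above every CL library. Without Acot12-/- UUO 2 Cxcl3 passed in Acot12+/+ with an adjusted p of 0.000146, and its log2 fold change in Acot12-/- was 1.35 with an adjusted p of 0.000161. That library was also highest for Cxcl2, Ccl3, Ccl4 and Cxcr2, beside its neutrophil marker sum of 169; of 5 neutrophil markers tested, 2 were called higher with UUO in Acot12+/+ and 5 in Acot12-/-, and the part of neutrophils in these values was not tested. Cxcr2, the receptor, was at 0.743, 0.603 and 0.383 FPKM in the CL libraries and 0.465, 0.837 and 0.287 in the UUO libraries of Acot12+/+, and at 0.142, 0.346 and 0.284 and 0.355, 1.32 and 0.634 in Acot12-/-. It was not called in Acot12+/+ (adjusted p = 0.839) or in Acot12-/- (0.0582), where the fit with a replicate block called it (adjusted p = 0.0229).

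The promoters of 3 neighbouring genes of this group carry a common element. They are shown here because these genes went from low to higher levels within 1 stretch of chromosome, Cxcl3 without a call in Acot12+/+. RefSeq promoter windows (GRCm38.p6, the same assembly as mm10) were at hand for 32 of the 44 members, and the 250 bases before the start site were searched on both strands for the kappaB consensus, the site of NF-kappaB dimers, in its 10-letter degenerate form. Of 32851 windows of that length in the genome, 3.90% held it, as did 6 of 35 windows of described members (17.1%). Counted by gene, with a match in any window of the gene, it was found in 5 of 20 members that rose in Acot12+/+ (Cxcl1, Cxcl2, Cxcl10, Ccl9 and Ccl20), in 0 of 6 that fell, and in Cxcl3 among 6 that were not called. Of these genes, Cxcl2, Cxcl3 and Ccl20 reached 0.3 FPKM only in UUO libraries. No match was recorded for Cxcl5, the other described Cxcr2 ligand of this stretch, and whether it had a window is not given here. In Cxcl1, Cxcl2 and Cxcl3 the 2 matches overlap within the same element, 1 on each strand and 1 base apart. The 150 bases before the start site follow for these genes and for Cxcl10 and Ccl9, with the kappaB match in capitals, and for Ccl21a, which fell in Acot12+/+ mice and has no match. Members that rose were shown only if they held a match, and others such as Ccl8 were passed over. The windows shown therefore do not stand for all members that rose, or for a contrast with those that fell. Matches of letters are a description, not evidence of binding.
Cxcl1 (chr5:90891095-90891244, plus strand): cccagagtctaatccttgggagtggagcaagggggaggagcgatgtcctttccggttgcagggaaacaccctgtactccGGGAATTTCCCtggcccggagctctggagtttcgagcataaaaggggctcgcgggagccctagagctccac
Cxcl2 (chr5:90903749-90903898, plus strand): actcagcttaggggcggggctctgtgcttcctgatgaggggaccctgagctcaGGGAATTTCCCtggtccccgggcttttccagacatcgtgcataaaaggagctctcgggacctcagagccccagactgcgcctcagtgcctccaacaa
Cxcl3 (chr5:90785951-90786100, plus strand): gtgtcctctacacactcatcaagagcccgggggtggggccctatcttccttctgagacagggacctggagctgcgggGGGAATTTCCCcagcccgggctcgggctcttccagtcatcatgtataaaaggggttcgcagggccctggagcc
Cxcl10 (chr5:92348890-92349039, minus strand): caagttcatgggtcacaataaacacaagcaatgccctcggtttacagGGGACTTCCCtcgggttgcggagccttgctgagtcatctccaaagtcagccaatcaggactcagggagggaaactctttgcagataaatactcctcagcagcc
Ccl9 (chr11:83578637-83578786, minus strand): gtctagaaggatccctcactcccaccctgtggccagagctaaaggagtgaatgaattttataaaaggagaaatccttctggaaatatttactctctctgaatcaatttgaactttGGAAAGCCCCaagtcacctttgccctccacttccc
Ccl21a (chr4:42773992-42774141, minus strand): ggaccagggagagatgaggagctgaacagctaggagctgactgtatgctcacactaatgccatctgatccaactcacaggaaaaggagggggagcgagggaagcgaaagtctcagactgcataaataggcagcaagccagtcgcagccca

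The window of Cxcl10 held a further match, 159 bases before the start site and outside the stretch shown. For comparison, 3 further motifs were searched in the same windows, again counted by gene for the members and by window for the background. The AP-1 site (TGANTCA, where N is any base) was in 2 of 20 members that rose and 0 of 6 that fell, beside 6.75% of all windows. The interferon response element was in 2 of 20 (Cxcl10 and Cxcl14) and in 1 of 6 (Ccl19), beside 2.98%. The TATA box (TATAAA) was in 6 of 20 and 2 of 6, beside 12.4%.

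Ccl3, Ccl4, Ccl5, Ccl6 and Ccl9 attract monocytes and activated T cells, in part through Ccr1. Ccl5, also called RANTES and made by T cells and macrophages, was at 28.9, 34.8 and 19.0 FPKM in the CL libraries of Acot12+/+ mice and 93.7, 123 and 85.1 in their UUO libraries, and was the most abundant ligand in 2 of 3 of those UUO libraries. Ccl5 in Acot12-/- mice was at 5.12, 2.56 and 4.40 in the CL libraries and 95.1, 43.3 and 50.7 in the UUO libraries. It rose in both, with a log2 change of 1.85 (SE 0.31, adjusted p = 0.00056) in Acot12+/+ and a log2 change of 3.62 (SE 0.31, adjusted p = 4.08e-06) in Acot12-/-. Ccl3 and Ccl4, made by activated macrophages and lymphocytes, were scarce. Ccl3 was at 0.133, 0.587 and 0.247 FPKM in the CL libraries and 1.74, 1.64 and 1.17 in the UUO libraries of Acot12+/+, where every UUO library was higher but the adjusted p was 0.0556 (0.0239 with the replicate block and 0.00238 without Acot12-/- UUO 2). Ccl3 in Acot12-/- mice rose from 0, 0.344 and 0.111 to 4.33, 12.5 and 2.46 (log2 change 2.46, SE 0.37, adjusted p = 0.000169). Ccl4 was at 1.22, 1.73 and 1.43 and 2.48, 2.04 and 1.82 FPKM in Acot12+/+ (adjusted p = 0.426), and rose from 0.935, 1.02 and 0.146 to 2.74, 10.4 and 5.17 in Acot12-/- (log2 change 1.96, SE 0.33, adjusted p = 0.000388). Ccl6 and Ccl9, mouse macrophage chemokines that act on Ccr1, rose in both genotypes. Ccl6 was at 5.39, 9.02 and 8.35 FPKM in the CL libraries of Acot12+/+ mice and 18.3, 24.3 and 25.1 in their UUO libraries (log2 change 1.47, SE 0.27, adjusted p = 0.000926). Ccl6 in Acot12-/- mice was at 1.22, 3.09 and 3.17 and 28.6, 43.9 and 36.2 (log2 change 3.45, SE 0.27, adjusted p = 1.91e-06), so that its CL libraries were the lowest of the 12 and its UUO libraries the highest. Ccl9 rose from 0.645 to 1.69 to 10.9 to 11.8 FPKM in Acot12+/+ and from 0.096 to 0.902 to 14.0 to 16.6 in Acot12-/-.

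The receptor rose in both genotypes. Ccr1 was at 0.517, 0.776 and 0.221 FPKM in the CL libraries and 4.41, 4.17 and 3.51 in the UUO libraries of Acot12+/+ (log2 change 1.75, SE 0.17, adjusted p = 2.11e-05). Ccr1 in Acot12-/- mice was at 0.077, 0.240 and 0.402 and 4.88, 6.36 and 4.20 (log2 change 2.30, SE 0.17, adjusted p = 1.56e-06).

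Cxcl9, Cxcl10 and Cxcl11 are induced by interferon and act on Cxcr3 of activated T cells and NK cells. Cxcl10 was at 7.90, 6.56 and 4.53 FPKM in the CL libraries and 58.6, 39.4 and 28.0 in the UUO libraries of Acot12+/+ mice, with a log2 change of 2.52 (SE 0.33, adjusted p = 0.000102). Cxcl10 in Acot12-/- mice was at 4.30, 11.6 and 5.83 and 38.2, 45.8 and 32.7, with a log2 change of 2.36 (SE 0.33, adjusted p = 9.92e-05). Every UUO library was above every CL library, and the 2 changes differed by -0.16 (SE 0.46), which did not pass the test (adjusted p = 0.972). Cxcl9 was lower, at 3.18, 2.23 and 0.643 and 8.32, 6.25 and 4.32 FPKM in Acot12+/+ (log2 change 1.34, SE 0.29, adjusted p = 0.00304). Cxcl9 was at 0.824, 0.961 and 1.08 and 4.80, 3.64 and 4.41 in Acot12-/- (log2 change 1.43, SE 0.29, adjusted p = 0.00151). Cxcl11, annotated as a polymorphic pseudogene in GENCODE vM21, stayed below 1 FPKM in every library. It reached 0.3 FPKM only in UUO libraries, so that it was higher there is largely set by the floor. Cxcl11 was at 0.220, 0 and 0.262 and 0.905, 0.552 and 0.460 in Acot12+/+ (log2 change 0.50, SE 0.13, adjusted p = 0.00697), and at 0.099, 0.151 and 0.228 and 0.698, 0.680 and 0.496 in Acot12-/- (log2 change 0.49, SE 0.13, adjusted p = 0.00629). Cxcr3 was at 0.921, 0.529 and 0.567 FPKM in the CL libraries and 4.06, 3.19 and 4.68 in the UUO libraries of Acot12+/+ (log2 change 1.57, SE 0.19, adjusted p = 6.09e-05). It reached less in Acot12-/- mice, 0.388, 0.099 and 0.402 in the CL libraries and 2.48, 1.14 and 1.57 in the UUO libraries (log2 change 1.05, SE 0.19, adjusted p = 0.000587). The 8 T cell markers had summed FPKM of 9.81 to 15.6, 37.7 to 41.6, 2.76 to 4.61 and 17.7 to 27.6 in the CL and UUO libraries of Acot12+/+ and then of Acot12-/- mice; none was at 0, and 6 of the 7 tested were called higher with UUO in each genotype. Their part in these values was not tested.

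Cx3cl1 and Cxcl16 are the 2 chemokines made as membrane-bound proteins, and both were abundant in CL kidneys. Cx3cl1, or fractalkine, was at 20.1, 31.6 and 23.7 FPKM in the CL libraries and 55.6, 71.7 and 94.2 in the UUO libraries of Acot12+/+ (log2 change 1.51, SE 0.31, adjusted p = 0.0019). Cx3cl1 in Acot12-/- mice was at 19.3, 8.80 and 23.1 and 63.7, 57.5 and 70.7 (log2 change 1.94, SE 0.31, adjusted p = 0.00025), and the CL library numbered 2 was the lowest of the 12. Its receptor Cx3cr1, carried by resident macrophages and patrolling monocytes, was at 4.34, 3.60 and 3.79 and 14.6, 10.5 and 11.4 in Acot12+/+ (log2 change 1.41, SE 0.36, adjusted p = 0.00765). Cx3cr1 was at 0.872, 5.57 and 2.44 and 10.7, 15.3 and 20.6 in Acot12-/- (log2 change 2.20, SE 0.36, adjusted p = 0.00034), where the CL libraries spread widely. Cxcl16 was at 24.2, 36.6 and 33.4 FPKM in the CL libraries and 87.7, 84.9 and 92.1 in the UUO libraries of Acot12+/+ (log2 change 1.48, SE 0.22, adjusted p = 0.000229). Cxcl16 in Acot12-/- mice was at 22.5, 25.6 and 41.6 and 85.6, 93.5 and 103 (log2 change 1.67, SE 0.22, adjusted p = 6.45e-05), and the UUO libraries of both genotypes lay close together. Cxcr6, its receptor on T and NK cells, was at 2.78, 2.00 and 1.89 and 7.39, 6.48 and 7.14 in Acot12+/+ (log2 change 1.32, SE 0.23, adjusted p = 0.000617). Cxcr6 in Acot12-/- mice was at 0.482, 0.701 and 0.037 and 4.02, 1.79 and 3.12 (log2 change 1.49, SE 0.23, adjusted p = 0.000189), below Acot12+/+ in both kidneys.

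Of the remaining ligands that rose in both genotypes, Ccl17 and Ccl22, ligands of Ccr4 made mainly by dendritic cells and macrophages, differed in size. Ccl17 was at 1.04, 1.76 and 0.234 FPKM in the CL libraries and 12.7, 26.1 and 15.7 in the UUO libraries of Acot12+/+ (log2 change 3.27, SE 0.33, adjusted p = 2.31e-05). Ccl17 in Acot12-/- mice was at 0, 0.414 and 0.222 and 19.1, 10.5 and 18.8 (log2 change 3.79, SE 0.33, adjusted p = 4.19e-06). Ccl22 went from 0.225 to 0.331 to 1.38 to 1.99 FPKM in Acot12+/+ and from 0.039 to 0.217 to 0.881 to 1.43 in Acot12-/-, a far lower level than Ccl17. Cxcl17, a mucosal chemokine, was at 0.130 to 0.423 FPKM in Acot12+/+ CL and 7.51 to 15.9 in UUO (log2 change 3.14, SE 0.23, adjusted p = 2.52e-06), and at 0 to 0.121 and 7.87 to 9.50 in Acot12-/- (log2 change 3.20, SE 0.23, adjusted p = 1.11e-06). Cxcl14, an epithelial chemokine, was already present in CL kidneys, at 7.05 to 14.1 FPKM in Acot12+/+ and 3.93 to 4.86 in Acot12-/-, and was at 24.2 to 38.1 and 22.5 to 44.0 in UUO. Ccl20, the ligand of Ccr6, was listed at 0, 0.289 and 0 FPKM in Acot12+/+ CL and at 0 in each Acot12-/- CL library, whereas UUO libraries reached 4.57, 3.20 and 2.91 in Acot12+/+ and 1.94, 5.09 and 3.92 in Acot12-/- (adjusted p = 4.23e-05 and 1.69e-05). Ccl1, a ligand of Ccr8, was listed at 0 in all 6 CL libraries and was at 1.13, 0.178 and 0.617 and 0.618, 0.401 and 0.338 in the UUO groups (adjusted p = 0.00628 and 0.0182, the latter 0.0676 without Acot12-/- UUO 1 and 0.058 without both Acot12-/- kidneys numbered 2). Ccr4, Ccr6 and Ccr8, the receptors of these ligands, did not reach the floor for description. Ccl20 and Ccl1 reached 0.3 FPKM only in UUO libraries, so that they were higher there is largely set by the floor.

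**Figure D2:**
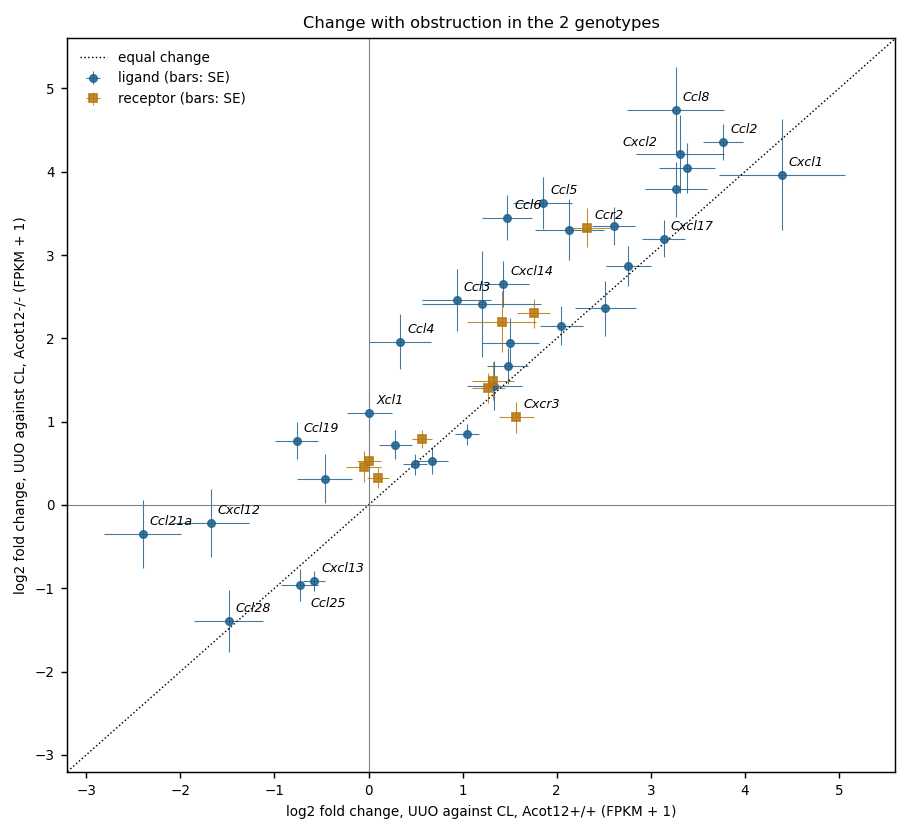
Log2 fold change of 43 members with UUO in Acot12+/+ (x axis) and in Acot12-/- mice (y axis), on log2(FPKM + 1), with bars for the SE of the fit, circles for ligands and squares for receptors. Most points lie above 0 on both axes; Ccl19 lies left of 0 and above it (-0.77 and 0.77), and Ccl21a and Cxcl12 lie far left of 0 and near 0 on the y axis.

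The 6 members that fell in Acot12+/+ mice were all ligands. Ccl21a and Ccl19 guide T cells and dendritic cells through Ccr7, Cxcl12 acts on Cxcr4 and retains hematopoietic cells, Cxcl13 guides B cells through Cxcr5, and Ccl25 and Ccl28 are epithelial ligands of Ccr9 and Ccr10. Ccl21a fell from 16.3, 14.7 and 18.3 FPKM in CL to 3.90, 1.94 and 1.47 in UUO, with a log2 change of -2.40 (SE 0.41, adjusted p = 0.000564). Ccl21a in Acot12-/- mice was already low in CL, at 1.56, 4.78 and 8.96, was at 2.32, 4.35 and 3.03 in UUO, and was not called (adjusted p = 0.499, and 0.0419 without Acot12-/- CL 1, its lowest CL library). Ccl21a has the near-identical copies Ccl21b and Ccl21c, both listed at 0 in every library, so the 3 may not be separable. Cxcl12 was the most abundant ligand in 2 of 3 Acot12+/+ CL libraries, at 84.5, 36.2 and 68.4 FPKM, and fell to 14.3, 12.2 and 32.2 in UUO, with a log2 change of -1.68 (SE 0.41, adjusted p = 0.0055). Cxcl12 in Acot12-/- mice was at 38.2, 64.0 and 29.0 in the CL libraries and 39.6, 25.6 and 44.2 in the UUO libraries, and the groups overlapped (adjusted p = 0.684). Its receptor Cxcr4 rose while Cxcl12 fell in Acot12+/+, from 2.03, 1.28 and 1.57 to 6.35, 4.60 and 5.10 FPKM (log2 change 1.27, SE 0.18, adjusted p = 0.000146). Cxcr4 in Acot12-/- mice was at 1.56, 2.33 and 1.56 and 5.27, 7.59 and 6.49 (log2 change 1.40, SE 0.18, adjusted p = 4.66e-05).

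Ccl19 was the only member called in opposite directions. It was at 14.6, 11.1 and 13.3 FPKM in the CL libraries and 8.95, 8.0 and 5.16 in the UUO libraries of Acot12+/+ mice, a fall with a log2 change of -0.77 (SE 0.22, adjusted p = 0.0151). Ccl19 was at 3.28, 5.56 and 3.95 in the CL libraries and 7.08, 6.73 and 10.1 in the UUO libraries of Acot12-/- mice, a rise with a log2 change of 0.77 (SE 0.22, adjusted p = 0.0122). The UUO groups overlapped and the CL groups did not, and the difference between the 2 changes was 1.54 (SE 0.32), with an adjusted p of 0.0873. The fall did not pass without Acot12+/+ CL 1 (adjusted p = 0.0594), without Acot12+/+ UUO 3 (0.0702) or with libraries scaled to an equal total (0.736), and the rise did not pass without Acot12-/- CL 1 (0.0503) or Acot12-/- UUO 3 (0.0573). Ccr7, the receptor of Ccl19 and Ccl21a, rose from 0.132, 0.191 and 0.337 to 0.645, 1.03 and 0.764 FPKM in Acot12+/+ (log2 change 0.57, SE 0.11, adjusted p = 0.00119). It rose from 0.039, 0.121 and 0.073 to 0.751, 0.863 and 0.995 in Acot12-/- (log2 change 0.79, SE 0.11, adjusted p = 8.33e-05), at levels that remained around 1 FPKM or below.

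Ccl28, Ccl25 and Cxcl13 fell in both genotypes. Ccl28 was at 20.8, 4.48 and 7.64 FPKM in the CL libraries and 2.86, 2.41 and 2.56 in the UUO libraries of Acot12+/+ (log2 change -1.49, SE 0.37, adjusted p = 0.00618). Acot12+/+ CL 1 was the highest, and without it the log2 fold change was -0.93 (adjusted p = 0.00612). Ccl28 in Acot12-/- mice was at 4.19, 3.38 and 2.87 in the CL libraries and 0.699, 0.462 and 0.962 in the UUO libraries (log2 change -1.39, SE 0.37, adjusted p = 0.0073). Ccl25 was at 6.93, 6.79 and 4.71 FPKM in the CL libraries and 3.01, 3.37 and 3.42 in the UUO libraries of Acot12+/+ (log2 change -0.73, SE 0.20, adjusted p = 0.0103, and 0.553 with libraries scaled to an equal total). Ccl25 in Acot12-/- mice was at 7.29, 7.61 and 6.82 and 3.56, 2.08 and 4.38 (log2 change -0.96, SE 0.20, adjusted p = 0.00154). Cxcl13 was at 0.801, 0.612 and 0.378 and 0.094, 0 and 0.095 FPKM in Acot12+/+ (log2 change -0.58, SE 0.12, adjusted p = 0.00204). Cxcl13 in Acot12-/- mice was at 0.717, 1.15 and 0.996 and 0, 0 and 0.103 (log2 change -0.91, SE 0.12, adjusted p = 6.33e-05), so that few fragments remained in any UUO library. Cxcl13 reached 0.3 FPKM only in CL libraries. It entered the description only through the CL groups, so that it was lower in UUO is largely set by the floor. Cxcr5, its receptor, did not reach the floor for description.

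The remaining members were near the floor or were not called in Acot12+/+ mice. Ccl27a, an epithelial ligand of Ccr10, was at 11.0 to 15.4 FPKM in CL and 8.11 to 10.2 in UUO of Acot12+/+ and at 4.76 to 12.0 and 9.33 to 15.4 in Acot12-/- (adjusted p = 0.21 and 0.388, the former 0.045 without Acot12-/- CL 2 and 0.0456 without both Acot12-/- kidneys numbered 2), and its near copy Ccl27b was listed at 0 throughout. Ccr10 was below 0.5 FPKM in every library, was not called in Acot12+/+, and was called higher in Acot12-/- (log2 change 0.32, SE 0.12, adjusted p = 0.0346), a call that did not hold with the replicate block (0.0557) or without any of 4 libraries, Acot12-/- CL 2 (0.0773), CL 3 (0.0689), UUO 2 (0.118) or UUO 3 (0.106), and had an adjusted p of 0.191 without both Acot12-/- kidneys numbered 2. Xcl1, a ligand made by NK and CD8+ T cells, was at 1.64, 1.22 and 1.21 FPKM in the CL libraries and 1.15, 1.26 and 1.72 in the UUO libraries of Acot12+/+ (adjusted p = 0.981). Xcl1 in Acot12-/- mice rose from 0, 0.643 and 0.464 to 0.937, 2.43 and 2.56 (log2 change 1.10, SE 0.24, adjusted p = 0.00207). Xcr1, its receptor on cross-presenting dendritic cells, was at 0.636, 0.688 and 0.511 and 0.733, 0.501 and 0.616 FPKM in Acot12+/+ (adjusted p = 0.984). Xcr1 in Acot12-/- mice rose from 0.079, 0.465 and 0.116 to 0.905, 0.613 and 0.731 (log2 change 0.53, SE 0.13, adjusted p = 0.0041), close to the level of the Acot12+/+ libraries. Ccl11, or eotaxin, was at 0.443 to 0.871 FPKM in CL and 0.678 to 1.10 in UUO of Acot12+/+ (adjusted p = 0.202), and at 0.073 to 0.551 and 0.741 to 1.36 in Acot12-/- (log2 change 0.72, SE 0.17, adjusted p = 0.00427). In all, 7 members (Ccl3, Ccl4, Ccl11, Cxcl3, Xcl1, Xcr1 and Ccr10) were called higher in Acot12-/- and not called in Acot12+/+; the difference between the genotypes itself had an adjusted p of 0.182 to 0.749 for them, so it was not shown.

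**Figure D3:**
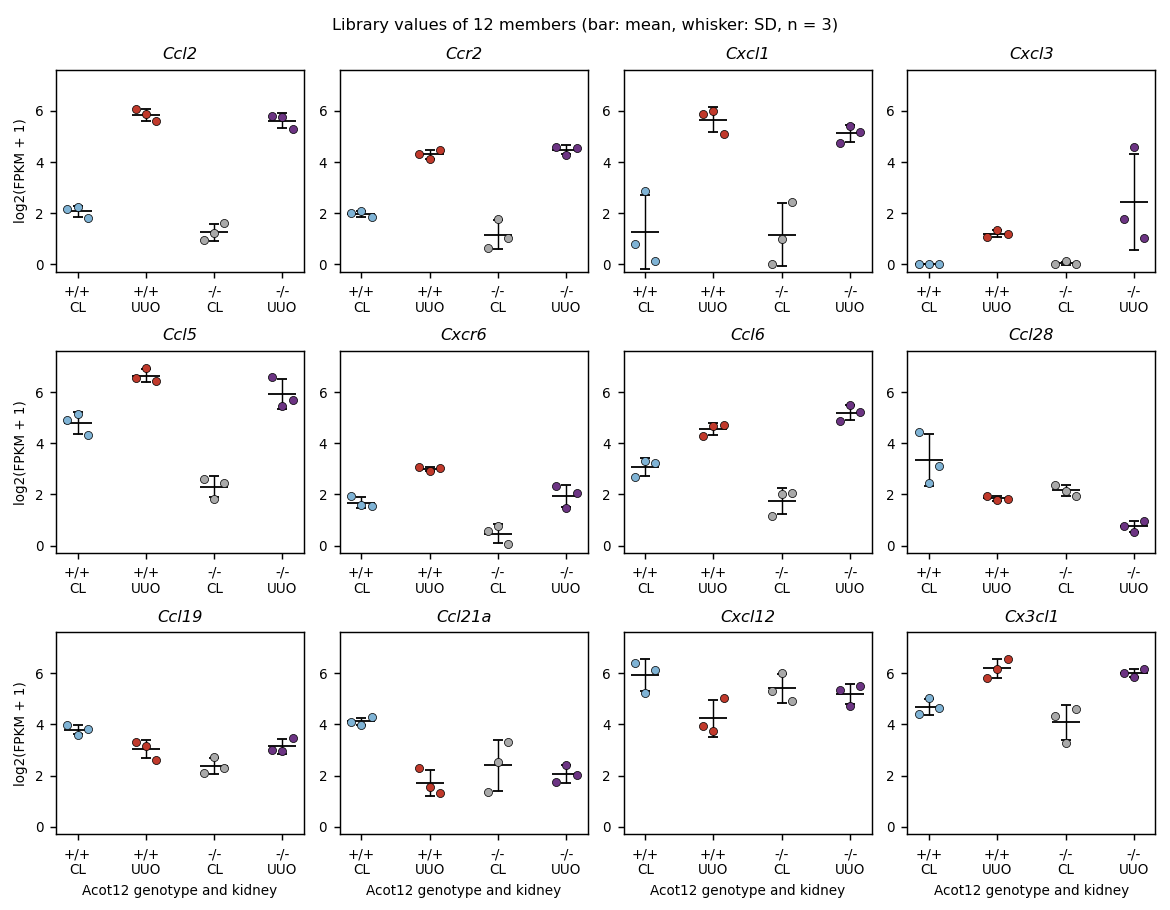
Library values of 12 members on log2(FPKM + 1) (y axis) in the 4 groups (x axis); points are libraries, the bar is the mean and the whisker the SD of 3 libraries. Ccl5, Cxcr6, Ccl6, Ccl19, Ccl2 and Ccr2 are lowest in Acot12-/- CL with no overlap with Acot12+/+ CL, Ccl2 and Ccr2 without a call. Cxcl3 has 1 high library in Acot12-/- UUO.

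In CL kidneys, the genotypes were compared in kidneys that were not themselves obstructed. All came from mice with the other ureter obstructed. A difference present before surgery and a different response of the CL kidney to it cannot be told apart. All 5 members called were lower in Acot12-/-: Ccl5, Ccl21a, Ccl19, Ccl6 and Cxcr6. None was called higher, beside 3.08% of all genes called lower and 0.976% called higher. Ccl5 was at 5.12, 2.56 and 4.40 FPKM in Acot12-/- against 28.9, 34.8 and 19.0 in Acot12+/+, with a log2 change of -2.50 (SE 0.31, adjusted p = 0.00313). Ccl19 was at 3.28, 5.56 and 3.95 against 14.6, 11.1 and 13.3, with a log2 change of -1.43 (SE 0.22, adjusted p = 0.00767). Ccl21a was at 1.56, 4.78 and 8.96 against 16.3, 14.7 and 18.3 (log2 change -1.72, SE 0.41, adjusted p = 0.0367), Ccl6 at 1.22, 3.09 and 3.17 against 5.39, 9.02 and 8.35 (log2 change -1.33, SE 0.27, adjusted p = 0.0181) and Cxcr6 at 0.482, 0.701 and 0.037 against 2.78, 2.00 and 1.89 (log2 change -1.22, SE 0.23, adjusted p = 0.0141). In each of these the Acot12-/- libraries lay below every Acot12+/+ library. Over all 44 members, 19 had every Acot12-/- CL library below every Acot12+/+ CL library and 0 had every one above, beside 10.7% and 7.99% of all genes tested. The median log2 difference of the members was -0.38, beside -0.01 over all genes. Of the members not called, Ccl8 (log2 change -1.78, SE 0.52, adjusted p = 0.0835), Cxcl14 (log2 change -1.08, SE 0.28, adjusted p = 0.0517; 0.0442 with the replicate block), Ccl2 (log2 change -0.81, SE 0.21, adjusted p = 0.0566), Ccr2 (log2 change -0.82, SE 0.24, adjusted p = 0.0792) and Xcl1 (log2 change -0.81, SE 0.24, adjusted p = 0.0836) came next.

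These CL calls rest on the shared estimate of the spread and on few libraries. With only the 6 CL libraries in the fit, 0 of 44 members and 1 of all genes were called. Without Acot12-/- CL 2, 13 members were lower, with Ccr2, Cx3cr1, Xcl1, Xcr1, Ccl2, Ccl11 and Cxcl14 among those added. Without Acot12+/+ CL 1 or without Acot12-/- CL 1, 3 were. The share of all genes called on leaving out these libraries is not given here. The change in count is therefore not shown to be particular to the members. Ccl5 and Ccl19 passed without any single library. Ccl6 did not pass without Acot12+/+ CL 2 (adjusted p = 0.0739), Acot12+/+ CL 3 (0.0709) or Acot12-/- CL 1 (0.0632), nor Cxcr6 without Acot12+/+ CL 1 (0.0625). Ccl21a did not pass without Acot12+/+ CL 1 (0.113), CL 2 (0.0836), CL 3 (0.113) or UUO 2 (0.0574), or without Acot12-/- CL 1 (0.0968) or UUO 3 (0.0576).

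Markers of several cell types were lower in the same Acot12-/- CL kidneys. Of T cell markers, 5 of 7 tested were called lower, with Cd3d at -1.54 and Cd3g at -1.38 (log2 difference), and the summed FPKM of the list was 2.76 to 4.61 against 9.81 to 15.6. Of macrophage and monocyte markers, 4 of 11 were, with Ly6c2 at -1.82 and C1qa at -1.33, and sums of 46.1 to 80.3 against 105 to 128. Endothelial markers had 7 of 8 lower, with Emcn at -1.59 and Plvap at -1.54, and sums of 64.4 to 97.0 against 187 to 297. Fibroblast markers had 2 of 7 lower (Col3a1 at -1.35 and Pdgfrb at -1.11; sums of 27.7 to 79.0 against 105 to 130) and NK cell markers 1 of 4 tested (Nkg7 at -1.84; sums of 1.66 to 2.45 against 5.50 to 8.52). No marker of proximal tubule was called, with sums of 3647 to 5172 in Acot12-/- against 2651 to 3223 in Acot12+/+. Of markers of neutrophils, B cells, dendritic cells, distal nephron, injured tubule and podocytes, none was called in this comparison. No marker analysed was at 0 in all libraries; the part of these cells in the chemokine values was not tested.

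**Figure D4:**
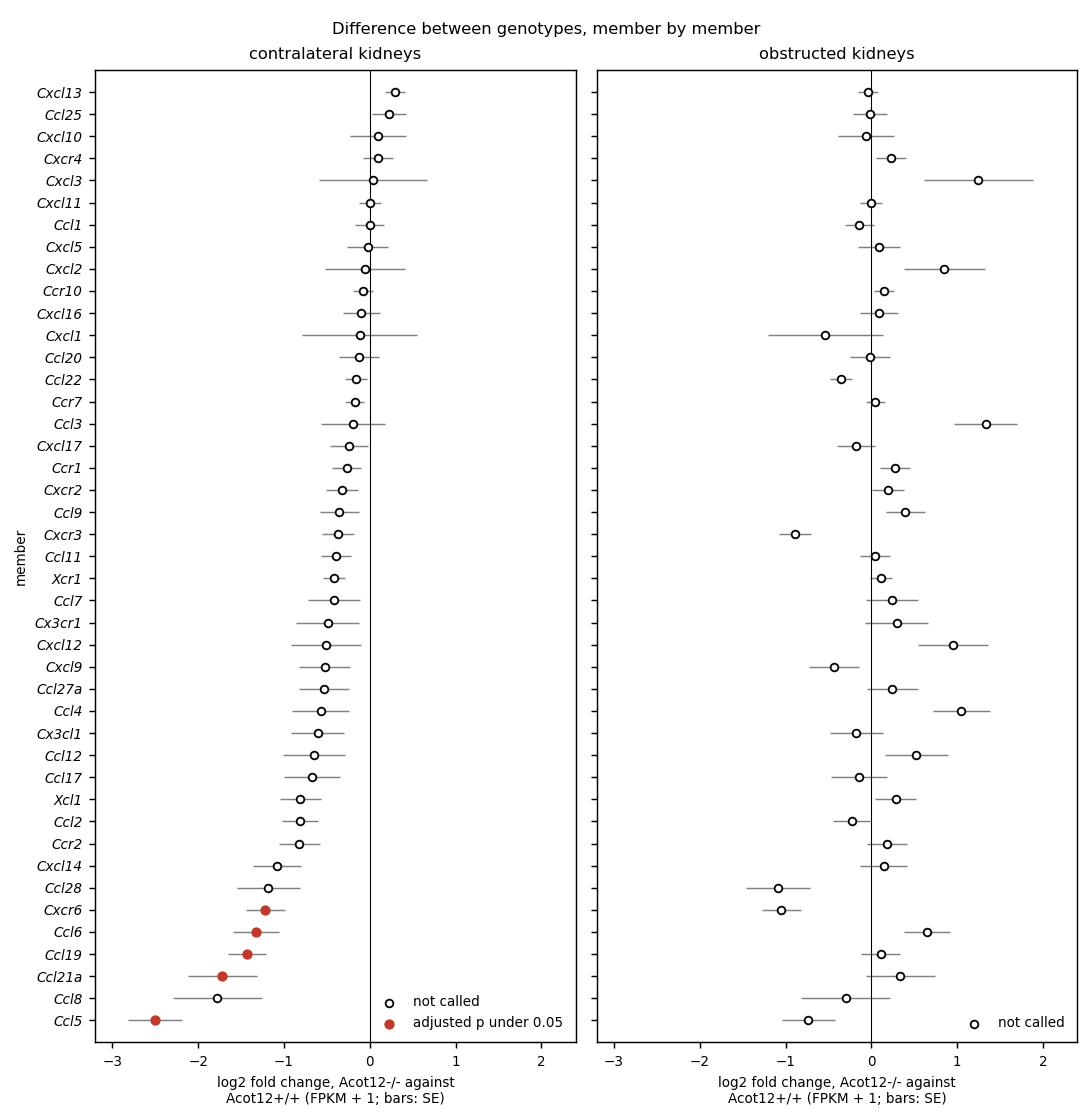
Log2 difference of Acot12-/- from Acot12+/+ for 43 members (rows) in CL kidneys (left) and in UUO kidneys (right), on log2(FPKM + 1), with bars for the SE and filled points for members called at an adjusted p under 0.05. In CL kidneys most points lie left of 0 and 5 are filled; in UUO kidneys the points lie on both sides and none is filled.

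In UUO kidneys, no member was called between genotypes, and no gene of the whole table was (0% of 14963). At an unadjusted p under 0.05 there were 9 of 44 members, beside 450 of 14963 genes. The median log2 difference of the members was 0.10, beside 0.00 over all genes. Cxcr6 and Cxcr3, both receptors of activated T cells, had the lowest adjusted p: Cxcr6 was at 4.02, 1.79 and 3.12 FPKM in Acot12-/- and 7.39, 6.48 and 7.14 in Acot12+/+ (log2 change -1.05, SE 0.23, adjusted p = 0.578), and Cxcr3 at 2.48, 1.14 and 1.57 and 4.06, 3.19 and 4.68 (log2 change -0.89, SE 0.19, adjusted p = 0.578). Ccl28 was the third member with every Acot12-/- library below every Acot12+/+ library, at 0.699, 0.462 and 0.962 against 2.86, 2.41 and 2.56 FPKM (log2 change -1.09, SE 0.37, adjusted p = 1). Above every Acot12+/+ library were 4 ligands: Ccl3, at 4.33, 12.5 and 2.46 against 1.74, 1.64 and 1.17 (log2 change 1.33, SE 0.37, adjusted p = 0.915), Ccl4 (log2 change 1.05, SE 0.33, adjusted p = 1), Ccl6 (log2 change 0.65, SE 0.27, adjusted p = 1) and Ccl9 (log2 change 0.39, SE 0.23, adjusted p = 1). Such separation was found in 6.46% of all genes below and 5.51% above. The 8 T cell markers summed to 17.7 to 27.6 FPKM in Acot12-/- UUO and 37.7 to 41.6 in Acot12+/+ UUO, with 5 of 7 tested below in every library and 0 called, and their part in Cxcr3 and Cxcr6 was not tested. For the monocyte ligand Ccl2 the difference was -0.23 (SE 0.21) and for Ccr2 0.18 (SE 0.24).

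The interaction asks whether the change with UUO differed between genotypes. No member was called, beside 0.0535% of all genes (8 of 14963). At an unadjusted p under 0.05 were 14 of 44 members, beside 1572 of 14963 genes. The interaction values of the members had a median of 0.52 on the log2 scale, beside 0.00 over all genes; the CL levels given above enter this value. With same-numbered kidneys as a replicate block, assumed to be the 2 kidneys of a mouse, 2 members were called. They were Ccl6 (adjusted p = 0.0339) and Ccl5 (0.0423), beside 0.408% of all genes. In the fit without a block Ccl6 had an interaction of 1.98 (SE 0.38, adjusted p = 0.066) and Ccl5 of 1.77 (SE 0.44, adjusted p = 0.134). Ccl21a, with 2.05 (SE 0.57, adjusted p = 0.167), was not called either. Without Acot12-/- CL 2, the members called included Ccl6, Ccl19, Ccr2 and Xcr1, and without Acot12-/- CL 3, Ccl6 and Ccl21a were called. The share of all genes called in the interaction without these libraries is not given here. The added calls are therefore not shown to be particular to the members.

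Members that lie next to each other in the genome (mm10, neighbours within 500 kb, a distance set after the values were seen) are given here by run, beside the 29 of 44 that rose in Acot12+/+ and the 37 of 44 in Acot12-/-; no test of position was made. On chr11:82035571-82305690 the genes Ccl2, Ccl7, Ccl11, Ccl12, Ccl8 and Ccl1 follow each other; 5 of 6 rose in Acot12+/+ and 6 of 6 in Acot12-/-. On chr11:83525778-83664683 lie Ccl5, Ccl9, Ccl6, Ccl3 and Ccl4, of which 3 and 5 rose. The Cxcr2 ligands Cxcl5, Cxcl3, Cxcl1 and Cxcl2 lie on chr5:90759360-90905938 with Cxcl15, which was not described; 3 and 4 of the 4 rose. Cxcl9, Cxcl10 and Cxcl11 on chr5:92321347-92365485 and Ccl22, Cx3cl1 and Ccl17 on chr8:94745590-94812036 each rose in both genotypes. In these runs Ccl1, Cxcl2, Cxcl3, Cxcl5 and Cxcl11 reached 0.3 FPKM only in UUO libraries. They entered the description only through the UUO groups, so that they were higher there is largely set by the floor. The same holds for Ccl20, which lies in none of these runs. The run on chr4:41769467-42773993, which holds Ccl27a, Ccl19 and Ccl21a, had no rise in Acot12+/+: 2 of 3 fell there, and 1 (Ccl19) rose in Acot12-/-.

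Of other genes of the chemokine system, 59 were tested, and their counts stand beside 23.7% of all genes called higher and 21.7% called lower in Acot12+/+, and 27.7% and 24.6% in Acot12-/-. Of 14 transcription factors and inhibitors that act on chemokine genes, 12 rose in Acot12+/+ and 11 in Acot12-/- and none fell, with a median log2 fold change of 1.56 and 1.85. Nfkb2 (2.71 and 2.39) and Relb (2.46 and 2.73), the subunits of the noncanonical NF-kappaB dimer, rose in both. Of 30 signaling genes downstream of chemokine receptors, 22 and 23 rose and none fell, with medians of 0.72 and 0.96; Rac2, a GTPase of leukocyte migration, rose by 1.36 and 2.31 and Fgr, a Src family kinase of myeloid cells, by 1.37 in Acot12+/+. Of 6 atypical receptors and chemokines with other names, 3 and 5 rose and none fell, with medians of 0.67 and 1.12: Pf4, platelet factor 4, rose by 1.59 and 3.09, Cmklr1, the chemerin receptor, by 0.90 in Acot12+/+, and Ppbp, a platelet chemokine, by 2.17 in Acot12-/-. Of 9 extracellular proteases that cut chemokines or matrix, 4 rose and 0 fell in Acot12+/+ and 3 rose and 2 fell in Acot12-/-, shares near those of all genes in Acot12-/-, with medians of 0.45 and 0.26. Mmp12 (1.55 and 2.10) and Mmp2 (1.54 and 2.04) rose in both, and Dpp4 (-0.90), which trims Cxcl12 and Cxcl10, and Mme (-0.86) fell in Acot12-/-. Between genotypes in CL kidneys, Pf4 (-1.67), Rasgrp2 (-1.09) and Rac2 (-1.01) were among 7 genes of these lists called lower, and Cpn1 (1.35), a carboxypeptidase subunit, was the 1 called higher. None was called between genotypes in UUO kidneys or in the interaction.

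Of the 13 matching symbols that were not described, Ccl21b, Ccl21c, Ccl26 and Ccl27b were listed at 0 in all 12 libraries. The others, Ccl24, Cxcl15, Ccr3, Ccr4, Ccr6, Ccr8, Ccr9, Cxcr1 and Cxcr5, reached 0.3 FPKM in at most 2 libraries. At this depth a low receptor transcript of a rare cell type cannot be told from absence. Just inside the floor was Ccr10, which reached it in 3 libraries (at 0.325, 0.450 and 0.471 FPKM), and just outside was Ccr9, which reached it in 2 (at 0.318 and 0.340).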

How the data were processed

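Total RNA of 12 kidney cortices was made into directional NEBNext Ultra II libraries and sequenced on a NovaSeq instrument. A service provider processed the reads up to normalized values; the submitters' processing notes name mm10 and edgeR, and the aligner is not given in the sources used here. The authors deposited 1 table of FPKM per library. The unit is not named in the tables and was read from the values, which in each library are whole multiples of a step inversely proportional to transcript length less an offset; the steps gave the depths, by the last of 3 forms of the method tried, the one whose depths did not depend on transcript length, and on 4 simulated libraries the method erred by at most 0.171%. A count model does not suit FPKM and was not used.

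Genes were tested with at least 0.3 FPKM in at least 3 libraries, the same floor as for members, after leaving out 58 genes listed at 0 beside at least 10 FPKM in the same group (0 members; an exclusion chosen after values were seen), which left 14963. Fits used limma 3.58.1 in R 4.3.3: lmFit on log2(FPKM + 1) with the 4 groups in 1 model and eBayes with a variance trend, Benjamini-Hochberg adjustment over all genes tested, called at 0.05. A pseudocount of 1 understates changes of low genes. Each p given for a gene is limma's adjusted p unless called unadjusted. On simulated data with 200 changed genes among 14963, 60% of log2 changes of 1 and 96% of changes of 2 were recovered for UUO against CL in Acot12+/+. In the data, 23.7% of genes were called higher and 21.7% lower there. The simulated shares therefore do not give the recovery of the real comparison.

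Within each genotype, residuals of same-numbered CL and UUO kidneys correlated at 0.13 to 0.34, and those of differently numbered ones at -0.34 to 0.12. Kidneys of different genotypes, which cannot share a mouse, correlated at up to 0.43 (Acot12+/+ UUO 1 with Acot12-/- UUO 2). The correlations therefore do not establish a pairing. The replicate block assumes that same-numbered kidneys come from 1 mouse. The labels do not state this, nor that the libraries are separate animals. Alternatives were the pseudocount, the filter, scaling, the block, the variance trend, the groups in the fit, a fold minimum and leaving out each library.

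The members, gene lists and tests were chosen with earlier results of these data known. Every described member is named but 1, which is in the counts and sums and, like 1 gene of the other lists, is not reported here. Library values and full statistics were given, by rule, for the 6 called members with the largest change in each comparison among those with a group mean of at least 1 FPKM, and for ligand and receptor pairs listed in the design; other genes of the lists are named for the 2 largest called changes in each direction. Gene positions and biotypes are from GENCODE vM21 (GRCm38). Windows shown, motifs and neighbour distance were chosen after values were seen. Protein sequences were not used here.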

Additional observations from a re-analysis of the deposited data

Results flagged for a closer look

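The 3 members flagged here were Ccl19, by opposite directions in every pair, and Ccl6 and Ccl5, by the fit with a replicate block. Ccl19 fell in 3 of 3 pairs of same-numbered kidneys of Acot12+/+ mice and rose in 3 of 3 pairs of Acot12-/- mice. Its CL and UUO libraries did not overlap in either genotype, so any pairing gives the same count. The change with UUO in Acot12-/- less that in Acot12+/+ was 1.54 on the log2 scale (SE 0.32, limma adjusted p = 0.0873, and 0.0761 with the replicate block). For Ccl6 the same difference was 1.98 (SE 0.38, adjusted p = 0.066, and 0.0339 with the block), with a rise in all 3 pairs of both genotypes. For Ccl5 it was 1.77 (SE 0.44, adjusted p = 0.134, and 0.0423 with the block), again with a rise in every pair. The block is the only alternative that called Ccl5, while Ccl6 was also called without Acot12-/- CL 2 (0.0227) or CL 3 (0.035), and Ccl19 without Acot12-/- CL 2 (0.0202). Without both Acot12-/- kidneys numbered 2, an alternative added after the data were seen, Ccl19 had an adjusted p of 0.0329 and Ccl6 of 0.0457. For the fits that leave out libraries, the share of all genes called is not given here. Dixon's test for outlying values was not applied to groups of 3 libraries.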

How the results depend on the processing

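No member that was called changed direction under any alternative, and counts of calls in each genotype with UUO stayed within 1.5 times those reported in all alternatives but 1. With a minimum fold change of 2 there were 3 members lower in Acot12+/+ and 1 in Acot12-/-, 26 and 29 other chemokine system genes called with UUO, and 4 in CL kidneys between genotypes. In CL kidneys, 8 members were lower at a pseudocount of 0.1 and 0 with only the groups compared, where 0 other chemokine system genes were called; leaving out each library gave 3 to 13 members and 4 to 18 other genes, and leaving out both Acot12-/- kidneys numbered 2 gave 13 and 18. Scaling to an equal total gave 4 other genes there and no variance trend gave 5. That scaling shifted the median of all genes by 0.53 with UUO in Acot12+/+, 0.39 in Acot12-/- and -0.14 between genotypes in UUO. In the interaction, the replicate block called 2 members, and leaving out each library called 0 to 5 members and 0 to 8 other genes. Without both kidneys numbered 2, 5 members and 6 other genes were called there; the pseudocount of 0.1, the filter at 1 FPKM and median-ratio size factors each called 1 other gene. Apart from those stated with the results, shares of all genes called in these alternatives are not given here. A change in these counts is therefore not shown to be particular to the members. The cause was not tested. Besides the calls named in the report, the replicate block changed no call of a member, and no setting called a member between genotypes in UUO kidneys. Low members rest on few fragments, and at 3 libraries a group a log2 change of 1 can be missed.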
